A study of Mus musculus with 8 samples.

Results

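AMPA receptors are the ion channels that carry most fast excitatory transmission in the brain, and their genes were described here in striatum of mice with and without a heterozygous 16p11.2 deletion. The genes were taken by symbol from the deposited table of counts per gene, in which each symbol matched a row. They numbered 10 of the 55032 genes listed, namely 4 pore-forming subunits (Gria1, Gria2, Gria3 and Gria4), 5 transmembrane AMPA receptor regulatory proteins or TARPs (Cacng2, Cacng3, Cacng4, Cacng5 and Cacng8) and 1 cornichon protein (Cnih2). All 10 had enough counts to be tested.

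Striatum was dissected at postnatal day 60 from 4 WT females and 4 females heterozygous for the 16p11.2 deletion (16p11.2+/-), and each mouse gave 1 RNAseq library. All mice were of a B6/C57 background, and the WT mice carried no deletion. The deletion is carried on 1 of the chromosomes 7 in every cell of the animal and is not limited to a cell type. Mice are named here as in the labels, with the prefix WT for WT mice and DF for 16p11.2+/- mice. No pooling of mice is stated, and the labels give no batch.

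An AMPA receptor is a tetramer of the proteins GluA1 to GluA4, which are encoded by Gria1 to Gria4. TARPs and cornichons bind the tetramer, help it to reach the synapse and change how long the channel stays open. In striatum the receptors sit mainly on medium spiny neurons, the projection neurons of this region, which receive glutamate from cortex and thalamus.

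The subunit genes are paralogues, and how far they can be told apart bears on every value that follows. Over their aligned coding sequences the 6 pairs of subunit genes were between 70.4% and 73.1% identical, and the 10 pairs of TARP genes between 59.5% and 72.7%. The longest identical stretch in any subunit pair was 41 bases, shared by Gria2 and Gria4, and the longest in any TARP pair was 23 bases. It is printed here to show the length of sequence over which the most alike pair cannot be separated, and it is much shorter than a read of these libraries.
Gria2 and Gria4 shared run: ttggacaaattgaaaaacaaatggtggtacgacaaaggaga

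A second stretch shows what counts per gene do not read. In the pore loop of the subunits lies the codon known as the Q/R site, and in Gria2 RNA the enzyme encoded by Adarb1 edits this glutamine codon so that it is read as arginine, which keeps calcium out of the channel. The 63 bases around this codon, taken from GENCODE M21 transcripts (GRCm38), are shown with the codon in capitals and run across an exon junction in each gene. Between pairs of genes they differed at 6 bases (Gria2 and Gria3) to 14 bases (Gria1 with Gria2 or Gria3). The codon is number 600 from the start codon in Gria1, 607 in Gria2, 612 in Gria3 and 608 in Gria4. It lies at chr11:57243094-57243096 on the plus strand for Gria1, chr3:80706911-80706913 on the minus strand for Gria2, chrX:41610265-41610267 on the plus strand for Gria3 and chr9:4464137-4464139 on the minus strand for Gria4.
Gria1: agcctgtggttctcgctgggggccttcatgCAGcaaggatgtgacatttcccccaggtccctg
Gria2: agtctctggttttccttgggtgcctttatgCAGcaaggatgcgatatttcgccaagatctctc
Gria3: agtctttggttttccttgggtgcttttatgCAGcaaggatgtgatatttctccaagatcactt
Gria4: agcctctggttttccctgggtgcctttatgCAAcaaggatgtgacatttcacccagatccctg
A count per gene sums all reads of a gene, so neither the editing of this codon nor the choice between the flip and flop exons could be read from these data.

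The libraries held 15125051 to 16523429 counts, and the labels were checked on the deleted segment. Of 60 genes within 600 kb of Fam57b with a mean of at least 10 counts, 23 were lower in every 16p11.2+/- mouse than in every WT mouse, with a ratio of mean CPM (counts scaled to library size) between 0.414 and 0.642, and 1 was higher. None of the 10 AMPA receptor genes lies in this window. Cacng3 and Cacng8 are on the same chromosome, 4.03 Mb and 123.4 Mb before Fam57b.

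Markers of other tissue differed between the pieces and are given first, because several AMPA receptor genes moved with them. Markers were summarised per mouse as a score, the mean log2 CPM of the list, so that 1 unit stands for a doubling. The 8 thalamus markers summed to between 16.7 and 24.99 FPKM (fragments per kilobase of transcript, scaled to library size) in 4 mice, WT-1015, WT-1041, WT-1061 and DF-1059, and to between 121 and 227 FPKM in the other 4, WT-1063, DF-1018, DF-1037 and DF-1062. Prkcd, the highest of them, ranged from 3.78 to 14.1 FPKM in the first 4 mice and from 26.3 to 82.0 FPKM in the second 4. Thus 1 of 4 WT mice and 3 of 4 16p11.2+/- mice were high in thalamus markers.

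The 10 medium spiny neuron markers, which define the tissue named in the labels, were all present in each mouse and summed to between 1033 and 1719 FPKM in WT and between 333 and 1620 FPKM in 16p11.2+/- mice. The lowest medium spiny neuron scores were 6.57 in DF-1062 and 6.90 in DF-1037, against 8.23 to 8.95 in the other 6 mice. Penk was the highest of these markers, at 111 to 456 FPKM. The 8 cortical glutamatergic markers summed to between 28.0 and 127 FPKM in WT and between 16.0 and 168 FPKM in 16p11.2+/- mice, with Slc17a7 the highest at 7.83 to 106 FPKM and Emx1 at 0 counts in DF-1018. The 7 choroid plexus markers ranged from 7.80 to 4431 FPKM in WT, led by Ttr at 1.12 to 4273 FPKM, and from 12.2 to 127 FPKM in 16p11.2+/- mice. The highest sum was that of WT-1063, in which all 7 had their highest FPKM, and WT-1015 followed at 478 FPKM. Interneuron markers summed to between 183 and 225 FPKM in WT and between 183 and 317 FPKM in 16p11.2+/- mice, astrocyte markers to 352 to 435 FPKM and 326 to 424 FPKM, and precursor markers to 56.1 to 68.6 FPKM and 57.3 to 69.3 FPKM. Oligodendrocyte markers summed to between 1434 and 1717 FPKM in WT and between 942 and 1295 FPKM in 16p11.2+/- mice.

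Per length, Gria1 was the most abundant of the 10 genes, with a mean of 81.7 FPKM over the 8 mice. It was followed by Gria2 at 62.8, Cnih2 at 62.0, Cacng4 at 25.2, Gria3 at 24.0, Gria4 at 22.0, Cacng3 at 19.7, Cacng2 at 18.8, Cacng8 at 13.6 and Cacng5 at 6.61 FPKM. Gria1 was above Gria2, Cnih2 above Cacng4, and Cacng8 above Cacng5 in 8 of 8 mice. Within this order Gria2 exceeded Cnih2, and Gria4 exceeded Cacng3, in 4 of 8 mice each. With the lengths behind these FPKM, neither pair differed beyond the spread between mice. For Cnih2 that length is 1237 bases, against 1369 bases of exon in GENCODE M21. The longer length would lower Cnih2, and its order with Gria2 was not counted at that length. Cacng4 with Gria3, Gria3 with Gria4, Cacng3 with Cacng2 and Cacng2 with Cacng8 kept the order of their means in 5 or 6 of 8 mice. Between the mouse with the lowest and the mouse with the highest level, the genes varied by 1.62-fold (Gria2) to 4.08-fold (Cacng5).

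The genotype comparison asked whether the deletion changed the expression of these genes. It was made with the quasi-likelihood test of edgeR on counts, and p-values were adjusted over all 18294 genes tested. None of the 10 genes passed the adjusted threshold of 0.05, which 0.109% of all genes tested passed. At an unadjusted p under 0.05 the count was also 0 of 10 with edgeR, with DESeq2 and with limma-voom, where 4.32%, 4.66% and 4.27% of all genes tested passed. With some other edgeR settings 1 or 2 genes passed this unadjusted limit. These were Gria4 with no filter, without WT-1063 and without DF-1059, and Cnih2 without WT-1063. Cacng4 passed without DF-1018, and Cacng8 with the thalamus score in the fit. Of all genes tested, 3.82% passed with no filter, 8.21% without WT-1063 and 5.06% without DF-1059. The share was 7.17% without DF-1018 and 4.16% with the thalamus score in the fit. The log2 fold change (16p11.2+/- over WT) was negative for 7 genes and positive for 3, with a median of -0.11, while over all genes tested 51.8% were negative and the median was -0.01. For each of the 10 genes the FPKM of WT and 16p11.2+/- mice overlapped, as it did for all but 2.83% of the genes tested.

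**Figure D1:**
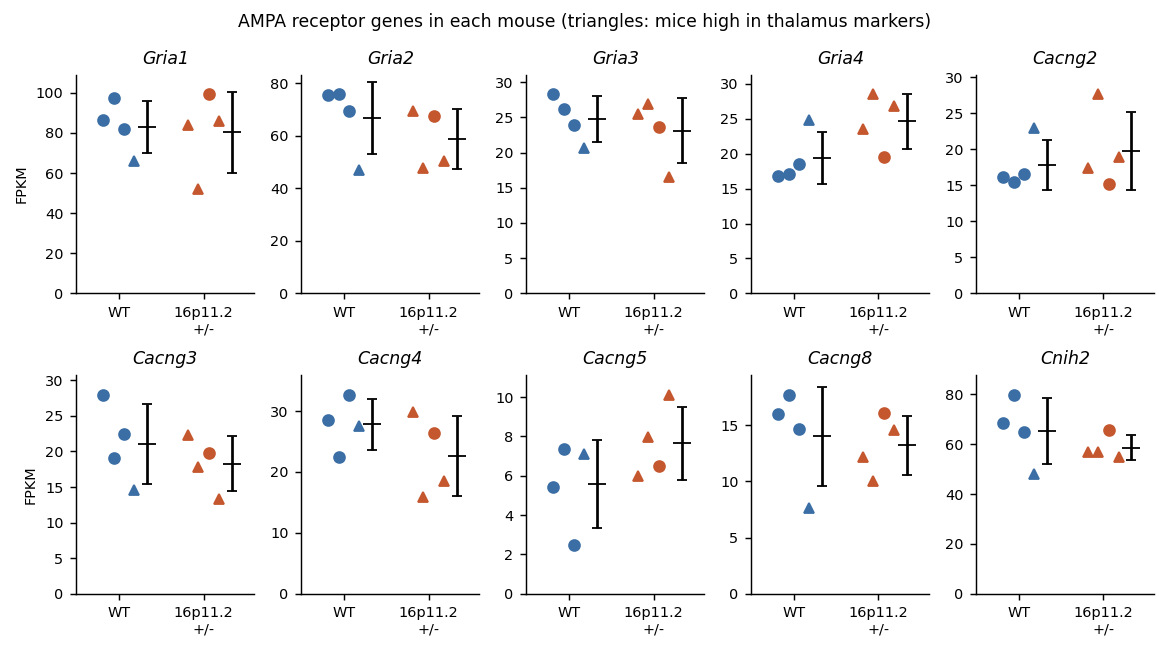
FPKM of the 10 AMPA receptor genes in each mouse, with WT in blue and 16p11.2+/- in orange, and with bars for the mean and SD of 4 mice. Triangles mark the 4 mice high in thalamus markers, which lie above the circles for Gria4 and Cacng2 and below them for Cacng8 and Cnih2.

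Gria1 (ENSMUSG00000020524, chromosome 11 from 57011387 to 57330244) encodes GluA1, the subunit that enters synapses when they are strengthened. Its FPKM was 86.7, 97.2, 82.2 and 66.0 in WT-1015, WT-1041, WT-1061 and WT-1063, and 84.2, 51.8, 99.2 and 86.2 in DF-1018, DF-1037, DF-1059 and DF-1062, and this order of mice is kept below. The lowest value of each genotype belonged to a mouse high in thalamus markers, WT-1063 and DF-1037. DF-1018 and DF-1062, also high in thalamus markers, lay within the range of the mice low in them, 82.2 to 99.2 FPKM. The mean was 83.0 ± 13.0 FPKM (SD, n = 4) in WT and 80.4 ± 20.1 FPKM (SD, n = 4) in 16p11.2+/- mice. The log2 fold change was -0.07 (95% interval -0.52 to 0.38, edgeR adjusted p = 0.944).

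Gria2 (ENSMUSG00000033981, chromosome 3 from 80681450 to 80802835) encodes GluA2, which after editing keeps the channel closed to calcium. Its FPKM was 75.5, 75.7, 69.4 and 46.9 in WT and 69.6, 47.6, 67.6 and 50.4 in 16p11.2+/- mice. The values fell into 5 mice at 67.6 or more and 3 mice at 50.4 or less, namely WT-1063, DF-1037 and DF-1062. The log2 fold change was -0.20 (95% interval -0.66 to 0.26, edgeR adjusted p = 0.867), with means of 66.9 ± 13.7 and 58.8 ± 11.4 FPKM (SD, n = 4 each).

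Gria3 (ENSMUSG00000001986, chromosome X from 41400854 to 41678601) encodes GluA3. Its FPKM of 28.3, 26.2, 23.9 and 20.7 in WT mice and 25.5, 27.0, 23.6 and 16.5 in 16p11.2+/- mice showed 1 low value, in DF-1062. Means were 24.8 ± 3.23 and 23.1 ± 4.61 FPKM (SD, n = 4 each), and the log2 fold change was -0.11 (95% interval -0.52 to 0.29, edgeR adjusted p = 0.902).

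Gria4 (ENSMUSG00000025892, chromosome 9 from 4417896 to 4796234) encodes GluA4, known from fast-firing interneurons and from thalamus. Its FPKM was 16.9, 17.2, 18.5 and 24.8 in WT mice and 23.6, 28.5, 19.6 and 26.9 in 16p11.2+/- mice. WT-1063 alone among WT mice reached into the range of the deletion group, and DF-1059 had the lowest value of that group. With means of 19.3 ± 3.71 and 24.6 ± 3.95 FPKM (SD, n = 4 each), the log2 fold change was 0.33 (95% interval -0.02 to 0.67), and the unadjusted edgeR p of 0.0594 was the lowest of these genes. Its edgeR p adjusted over all genes was 0.859. Leaving out WT-1063 raised the log2 fold change to 0.47 (edgeR adjusted p = 0.517), and the thalamus score in the fit lowered it to 0.11 (edgeR adjusted p = 1.0).

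Cacng2 (ENSMUSG00000019146, chromosome 15 from 77991748 to 78120028) encodes stargazin, the first TARP to be described, and 5.86% of its exon sequence overlaps A730060N03Rik on the opposite strand. Its FPKM was 16.2, 15.5, 16.6 and 22.9 in WT and 17.5, 27.6, 15.3 and 18.9 in 16p11.2+/- mice. WT-1063 and DF-1037 were highest in their groups, both high in thalamus markers. The log2 fold change was 0.13 (95% interval -0.31 to 0.58, edgeR adjusted p = 0.895), with means of 17.8 ± 3.45 and 19.8 ± 5.42 FPKM (SD, n = 4 each).

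Cacng3 (ENSMUSG00000066189, chromosome 7 from 122670492 to 122769393) encodes a TARP close to stargazin. Its FPKM was 28.0, 19.1, 22.4 and 14.6 in WT and 22.3, 17.8, 19.8 and 13.3 in 16p11.2+/- mice, and the lowest value of each group came from WT-1063 and DF-1062. Means of 21.02 ± 5.64 and 18.3 ± 3.83 FPKM (SD, n = 4 each) gave a log2 fold change of -0.22 (95% interval -0.74 to 0.31, edgeR adjusted p = 0.873).

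Cacng4 (ENSMUSG00000020723, chromosome 11 from 107732357 to 107794557) was, per length, the most abundant of these 5 TARP genes. Its FPKM was 28.5, 22.5, 32.7 and 27.5 in WT and 29.9, 15.9, 26.5 and 18.5 in 16p11.2+/- mice. The 2 lowest values belonged to DF-1037 and DF-1062, the mice lowest in medium spiny neuron markers. Means were 27.8 ± 4.19 and 22.7 ± 6.57 FPKM (SD, n = 4 each), and the log2 fold change was -0.31 (95% interval -0.81 to 0.19, edgeR adjusted p = 0.859). Without these 2 mice it was 0.03 (edgeR adjusted p = 0.997).

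Cacng5 (ENSMUSG00000040373, chromosome 11 from 107874605 to 107915055), of the second class of TARPs, was the least abundant gene, with 156 to 641 counts per mouse. Its FPKM was 5.41, 7.34, 2.48 and 7.12 in WT and 5.97, 7.99, 6.48 and 10.1 in 16p11.2+/- mice, with the lowest value in WT-1061 and the highest in DF-1062. Means of 5.59 ± 2.24 and 7.64 ± 1.86 FPKM (SD, n = 4 each) gave the largest log2 fold change of the 10 genes, 0.43, with the widest interval, -0.27 to 1.12 (edgeR adjusted p = 0.859). Without WT-1061 the log2 fold change was 0.19 (edgeR adjusted p = 0.984), below the 0.32 of Gria4 in the same fit.

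Cacng8 (ENSMUSG00000053395, chromosome 7 from 3390683 to 3415648) encodes the TARP that is best known from hippocampus. Its FPKM was 16.0, 17.7, 14.7 and 7.68 in WT and 12.2, 10.003, 16.1 and 14.6 in 16p11.2+/- mice, and the group means were 14.0 ± 4.41 and 13.2 ± 2.67 FPKM (SD, n = 4 each). WT-1063 had the lowest value of all 8 mice. The log2 fold change was -0.11 (95% interval -0.68 to 0.46, edgeR adjusted p = 0.931). With the thalamus score in the fit it was 0.32 (95% interval 0.01 to 0.64), so its direction turned, with an edgeR adjusted p = 1.0.

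Cnih2 (ENSMUSG00000024873, chromosome 19 from 5092868 to 5098521) encodes a cornichon, which carries AMPA receptors out of the endoplasmic reticulum and slows their closing. The length behind its FPKM is 1237 bases, against 1369 bases of exon in GENCODE M21, and a longer length would lower its level but not its fold change. Its FPKM was 68.6, 79.9, 65.0 and 48.0 in WT and 56.9, 56.9, 65.8 and 54.8 in 16p11.2+/- mice. The 4 mice high in thalamus markers had the 4 lowest values. The log2 fold change was -0.18 (95% interval -0.52 to 0.16, edgeR adjusted p = 0.859), with means of 65.4 ± 13.2 and 58.6 ± 4.91 FPKM (SD, n = 4 each).

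Expressed as a ratio of 16p11.2+/- to WT, the 95% intervals of the 10 genes reached down to 0.572 (Cacng4) and up to 2.17 (Cacng5). For the abundant subunits they ran from 0.696 to 1.31 for Gria1 and from 0.632 to 1.19 for Gria2. No change that lies within the interval of its gene is excluded by these data.

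**Figure D2:**
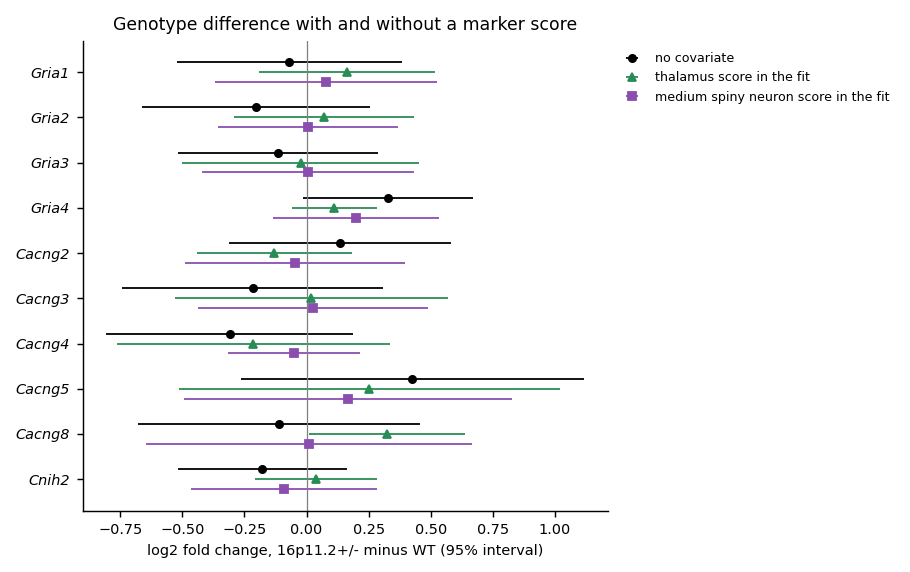
Log2 fold change of each gene, 16p11.2+/- over WT, with its 95% interval from edgeR (n = 4 mice per group), without a covariate (black circles) and with the thalamus score (green triangles) or the medium spiny neuron score (purple squares) in the fit. Gria4 and Cacng5 stay above 0 in all 3 fits, Cacng4 stays below 0, and the other 7 genes change sign in at least 1 fit.

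The make-up of the subunit pool was then compared within each mouse, which removes differences in the overall level. Gria1 made up 42.7 ± 1.52% of the summed FPKM of the subunit genes in WT and 42.5 ± 6.69% in 16p11.2+/- mice (SD, n = 4 each). For Gria2 the shares were 34.2 ± 3.13% and 31.3 ± 2.65%, and for Gria3 12.8 ± 0.696% and 12.6 ± 3.49%. Gria4 took 8.13%, 7.93%, 9.54% and 15.7% in WT mice and 11.6%, 18.4%, 9.31% and 14.9% in 16p11.2+/- mice. Its share was at most 9.54% in the 4 mice low in thalamus markers and at least 11.6% in the 4 mice high in them, whatever the genotype. The difference between genotypes in each share was not tested, and none exceeded 1 SD of the mice within groups. These shares rest on the length of each gene: the count of Gria2 is divided by 15548 bases and that of Gria1 by 6043 bases, and without that division Gria2 made up 54.1 ± 3.48% and Gria1 26.3 ± 1.07% of the subunit counts in WT mice.

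Among the 5 TARP genes, which leave out Cacng7, a TARP gene of the second class listed with other complex genes below, Cacng4 held the largest share of the summed FPKM in WT, 32.2 ± 4.22%, and 27.5 ± 6.39% in 16p11.2+/- mice (SD, n = 4 each). Cacng3 held 24.1 ± 4.76% and 22.2 ± 3.33%, Cacng8 16.2 ± 4.93% and 16.2 ± 3.49%, and Cacng5 6.60 ± 2.94% and 9.50 ± 2.96%. Cacng2 took 17.2%, 18.9%, 18.7% and 28.7% in WT mice and 19.9%, 34.8%, 18.1% and 25.1% in 16p11.2+/- mice. As for Gria4, the 4 highest shares of Cacng2 were those of the 4 mice high in thalamus markers. In DF-1037 and DF-1062, the mice lowest in medium spiny neuron markers, Cacng2 had a larger share than Cacng4, 34.8% against 20.03% and 25.1% against 24.5%. This order rests on gene length, 5510 bases for Cacng2 and 3575 bases for Cacng4. Without that division Cacng2 also exceeded Cacng4 in WT-1041 (29.6% against 27.8%) and WT-1063 (40.7% against 31.7%). It did not in WT-1015, WT-1061, DF-1018 or DF-1059. The summed FPKM of the subunit genes was 194 ± 25.5 in WT and 187 ± 24.9 in 16p11.2+/- mice, and that of the TARP genes 86.2 ± 6.44 and 81.6 ± 5.46 (SD, n = 4 each).

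**Figure D3:**
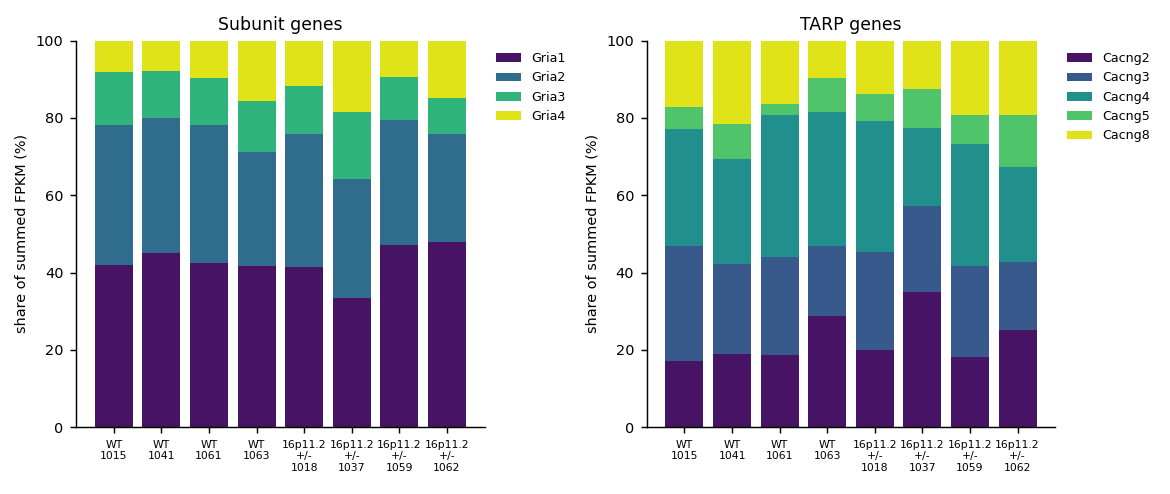
Share of each gene in the summed FPKM of the 4 subunit genes (left) and of the 5 TARP genes (right), in percent, 1 bar per mouse. The Gria4 band is thickest in WT-1063, DF-1037 and DF-1062 at 14.9% to 18.4%, and the Cacng2 band is thickest in DF-1037 at 34.8%.

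The members were next described against the marker scores, with genotype kept in the fit. The scores used no AMPA receptor gene, and these slopes were chosen with the values known. On the thalamus score, slopes were positive for 3 genes and negative for 7. Gria4 rose by 0.15 per unit on the log2 scale (95% interval 0.10 to 0.21, edgeR adjusted p = 0.0350), where 0.907% of all genes tested rose past the threshold. Cacng8 changed by -0.26 per unit (95% interval -0.37 to -0.16, edgeR adjusted p = 0.0462), where 0.0383% of all genes tested fell past the threshold. In the 4 mice low in thalamus markers Gria4 was at 16.9 to 19.6 FPKM and Cacng8 at 14.7 to 17.7 FPKM, and in the 4 mice high in them Gria4 was at 23.6 to 28.5 FPKM and Cacng8 at 7.68 to 14.6 FPKM, so that neither gene overlapped.

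Cacng2 and Cnih2 also did not overlap between these sets of mice, at 15.3 to 16.6 against 17.5 to 27.6 FPKM and at 65.0 to 79.9 against 48.0 to 56.9 FPKM. Thus 4 of the 10 genes did not overlap, against 8.06% of all genes tested. Their slopes, 0.18 (95% interval 0.08 to 0.28, edgeR adjusted p = 0.138) and -0.14 (95% interval -0.22 to -0.06, edgeR adjusted p = 0.154), did not pass the threshold. Gria1 and Gria2 had slopes of -0.17 (edgeR adjusted p = 0.223) and -0.18 (edgeR adjusted p = 0.210). With DESeq2 in place of edgeR the slopes of Gria2, Cacng2 and Cnih2 passed the threshold as well as those of Gria4 and Cacng8. The share of all genes that passed with DESeq2 on this score was not counted, so these calls have no share to be set beside. The 8 mice fall into separate low and high sets on this score, so the slopes mainly set 4 mice against 4. In fits that left out 1 mouse each, the edgeR adjusted p was under 0.05 in 2 of 8 fits for Gria4 and in 2 of 8 fits for Cacng8, and without WT-1063, the only WT mouse in the high set, it was 0.818 and 0.853, with slopes of 0.16 and -0.18.

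On the medium spiny neuron score Cacng4 rose by 0.37 per unit (95% interval 0.22 to 0.52, edgeR adjusted p = 0.0201). Past the threshold, 3.76% of all genes tested rose and 1.18% fell with this score. Cacng4 was at 15.9 and 18.5 FPKM in DF-1037 and DF-1062, which had the lowest scores, and at 22.5 to 32.7 FPKM in the other 6 mice. Slopes of Gria2 (0.28, edgeR adjusted p = 0.125) and Cacng3 (0.31, edgeR adjusted p = 0.170) did not pass the threshold with edgeR, and that of Gria2 did with DESeq2. The share of all genes that passed with DESeq2 on the medium spiny neuron score was not counted, so this call has no share beside it. In such fits the edgeR adjusted p of Cacng4 was under 0.05 in 4 of 8 fits and reached 0.169 without DF-1018. On the cortical glutamatergic score none of the 10 genes passed the threshold in edgeR, as 0.361% of all genes tested did, and the slopes lay between -0.08 (Cacng4) and 0.10 (Cacng8). The scores partly sort the same mice. DF-1037 and DF-1062, lowest in the medium spiny neuron score, were both high in thalamus markers. WT-1063 and DF-1018 were also high in thalamus markers, without such low medium spiny neuron scores. WT-1063, DF-1018 and DF-1062 had the lowest cortical glutamatergic scores, whereas DF-1037 had the highest. Each score was fitted without the others, so whether their slopes are separate associations was not tested. In tissue pieces such as these, fewer cells of a type and less RNA per cell cannot be told apart. Whether the marker content sets the level of an AMPA receptor gene was not tested.

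**Figure D4:**
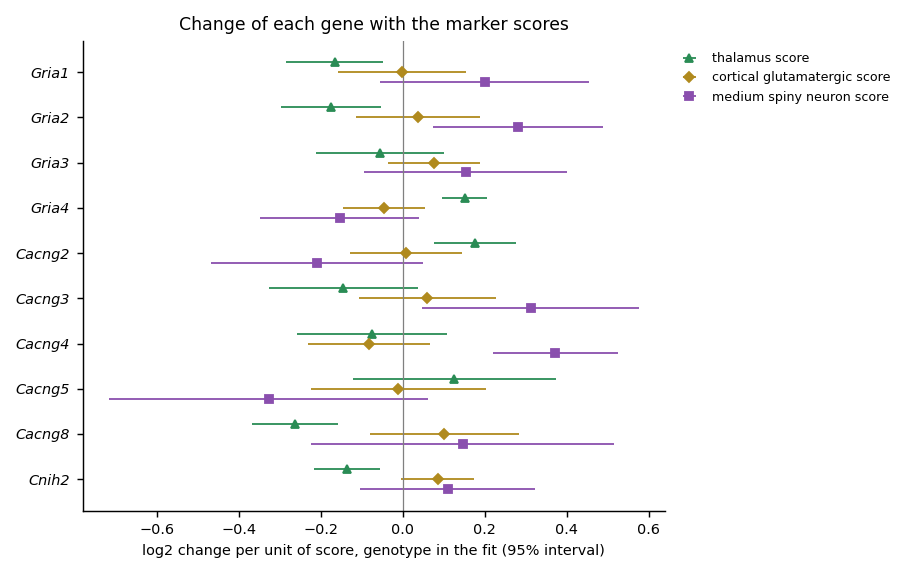
Change of each gene in log2 units per unit of the thalamus (green triangles), cortical glutamatergic (gold diamonds) and medium spiny neuron (purple squares) score, with genotype in the edgeR fit and 95% intervals over 8 mice. Gria4 and Cacng8 have the thalamus slopes that passed the threshold, 0.15 and -0.26, and Cacng4 has the medium spiny neuron slope that did, 0.37.

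**Figure D5:**
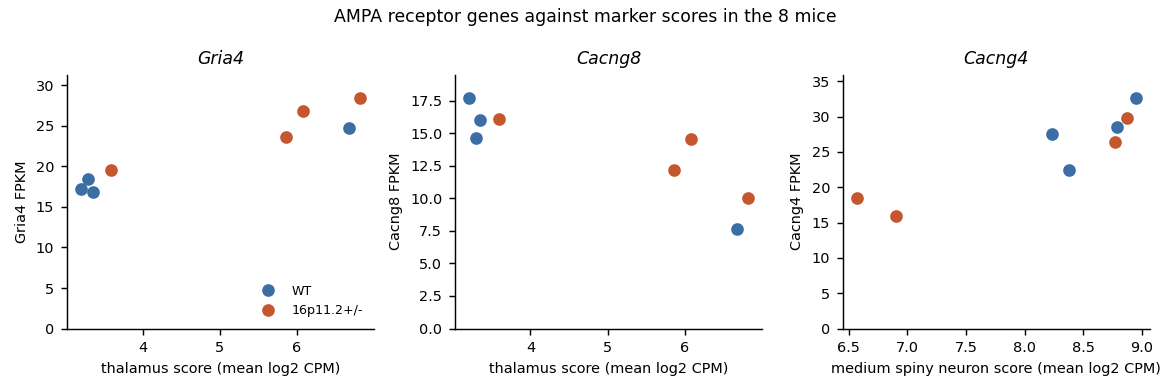
FPKM of Gria4 and Cacng8 against the thalamus score, and of Cacng4 against the medium spiny neuron score (both scores in mean log2 CPM), 1 point per mouse, with WT in blue and 16p11.2+/- in orange. The points form a low and a high set on the thalamus score, with WT-1063 and DF-1059 each among mice of the other genotype, and DF-1037 and DF-1062 lie apart on the medium spiny neuron score.

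Other proteins of the receptor complex and of its traffic were examined as lists, with those of related receptors. Of 59 genes tested in these 4 lists, 3 rose past the threshold with the thalamus score (0.907% of all genes tested), 1 with the cortical glutamatergic score (0.361% in either direction), and 9 rose and 1 fell with the medium spiny neuron score (3.76% and 1.18%). Of 27 further genes of the complex none passed the adjusted threshold with edgeR, and 3 had an unadjusted p under 0.05, as did 4.32% of all genes tested, with a median log2 fold change of 0.02. Shisa8, of a family of receptor-bound proteins that change channel kinetics, had 21, 18, 24 and 11 counts in WT and 7, 5, 10 and 5 counts in 16p11.2+/- mice. The groups did not overlap, and its log2 fold change was -1.47 (95% interval -2.29 to -0.65), with an edgeR adjusted p = 0.859. Nptx1, a secreted pentraxin that gathers receptors at synapses, had a log2 fold change of -0.54 (edgeR adjusted p = 0.876), and it rose with the cortical glutamatergic score by 0.59 per unit (edgeR adjusted p = 0.0470).

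At the other end of this list were Vwc2 and Vwc2l, which encode secreted proteins. The FPKM of Vwc2 was 0.81, 0.83, 0.78 and 1.79 in WT and 1.43, 2.59, 1.19 and 2.64 in 16p11.2+/- mice, with a log2 fold change of 0.87 (edgeR adjusted p = 0.859). Vwc2l had a log2 fold change of 1.07 (edgeR adjusted p = 0.859). Both had their highest WT value in WT-1063, and on the thalamus score Vwc2 rose by 0.34 per unit (edgeR adjusted p = 0.0478), as did Olfm3, a secreted partner of the receptor, by 0.28 per unit (edgeR adjusted p = 0.0121). Prrt2, which lies in the deleted segment, was counted at only 6 to 26 reads per mouse. Of its exon sequence 92.4% overlaps Gm42742 and reads there cannot be assigned to either gene alone, and its log2 fold change was -0.54 (edgeR adjusted p = 0.864).

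In the list of 17 trafficking, scaffold and editing genes none passed the adjusted threshold with edgeR, 1 had an unadjusted p under 0.05 (4.32% of all genes tested), and the median log2 fold change was -0.09. The lowest were Arc, an activity-induced gene whose protein removes AMPA receptors from synapses (log2 fold change -0.59, edgeR adjusted p = 0.859), and Akap5, which anchors kinases at the receptor (-0.34, edgeR adjusted p = 0.884). The highest were Adarb1 (0.56, edgeR adjusted p = 0.859) and Grip2, a scaffold that binds GluA2 (0.47, edgeR adjusted p = 0.859). Adarb1, the editing enzyme of the Q/R site printed above, was at 14.3, 15.1, 15.5 and 52.2 FPKM in WT and 37.1, 55.7, 19.3 and 32.5 FPKM in 16p11.2+/- mice. It was at most 19.3 FPKM in the 4 mice low in thalamus markers and at least 32.5 FPKM in the 4 mice high in them, and rose by 0.49 per unit of that score (95% interval 0.38 to 0.59, edgeR adjusted p = 0.00374). With the medium spiny neuron score Akap5 rose by 0.84 per unit (edgeR adjusted p = 0.000425) and Camk2b, a kinase subunit of the postsynapse, by 0.43 per unit (edgeR adjusted p = 0.00481), while Grip2 changed by -0.34 per unit (edgeR adjusted p = 0.0216).

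The related ionotropic receptor families were examined in the same way. Of 9 kainate and delta receptor genes none passed the adjusted threshold with edgeR, and 1, the kainate receptor subunit Grik1, had an unadjusted p under 0.05, as 4.32% of all genes tested did (log2 fold change 0.69, edgeR adjusted p = 0.859). The kainate auxiliary genes Neto2 and Neto1 were lowest, at -0.39 and -0.35 (edgeR adjusted p = 0.859 and 0.864), and both rose with the medium spiny neuron score, by 0.44 and 0.61 per unit (edgeR adjusted p = 0.0177 and 0.00381). Grik4 had a log2 fold change of 0.15 (edgeR adjusted p = 0.896), and the median of the list was 0.01. Of the 7 NMDA receptor genes 6 were tested and none passed with edgeR. Grin3a had the only unadjusted p under 0.05, beside 4.32% of all genes tested (log2 fold change 0.90, edgeR adjusted p = 0.859), Grin2d followed at 0.64 (edgeR adjusted p = 0.859), and the striatal subunit genes Grin2a and Grin2b were lowest at -0.16 and -0.14 (edgeR adjusted p = 0.896 and 0.888), with a list median of 0.06. Grin3b, at 5 to 13 counts, was not tested.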

How the data were processed

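RNAseq libraries of striatum from 4 WT and 4 16p11.2+/- mice were compared by the genotype in the labels. The authors filtered the reads, mapped them with Hisat2 and counted them with Htseq-count, and deposited the raw counts per gene of each mouse. The submitters' processing notes name Bowtie 0.12.2 with mm8 and mm9 instead, and the build and the strand setting behind the counts are not given in the sources used here. In 100% of 35741 genes the FPKM, also deposited, was reproduced from the count, 1 length per gene and the library total (tolerance 0.001). That length matched the exons of GENCODE M21 (GRCm38), from which positions were taken, in 97.6% of 35149 genes (tolerance 0.01). The authors' deposited comparison holds fold changes and p-values and was not used. A further deposited file, which bins FPKM, was left out too. Each library is a numbered mouse, and within a group counts differed by 8.88 to 62.9 on a chi-square scale where sampling noise alone gives 1.

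The quasi-likelihood test of edgeR 4.0.16 (R 4.3.3) was run on TMM-scaled counts of genes kept by filterByExpr (min.count 10, min.total.count 15), with Benjamini-Hochberg adjustment and a threshold of 0.05. Standard errors came from the fold change and the F statistic. Marker scores used a prior count of 0.5. Instead of this test, DESeq2 1.42.0, limma-voom (limma 3.58.1) and limma-trend were used, the last on log2(FPKM + 1) and log2(FPKM + 0.1). Scaling by RLE or library totals, 2 other filters, leaving out a mouse and a marker score as covariate were further alternatives. Leaving out mice by their markers, and the slopes on scores, were added after the data had been seen. The code was tested on simulated data. Members and lists were chosen with earlier results of these data known. All 10 members are named, and of each list the genes past the genotype threshold with the 2 highest and 2 lowest log2 fold changes. Olfm3, Camk2b and Prrt2 were named after their values were seen. Marker genes are named only at 0 or as the highest of their list.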

Additional observations from a re-analysis of the deposited data

Results flagged for a closer look

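In 7 of 82 groups of 4 values the highest or lowest mouse lay further from the rest than Dixon's 95% limit. This limit for 4 samples is a share of the group's range, and chance passes it in about 1 in 20 independent groups. The 82 groups share mice and genes, and some genes were chosen by their fold changes, so the count cannot be set against that rate. In all of the 7 groups but 1 the mouse was WT-1063. Its Cacng2 level was 22.9 FPKM against 15.5 to 16.6 in the other WT mice (gap of 0.851 of the range), and its Cacng2 share of the TARP FPKM was 28.7% against 17.2% to 18.9% (0.851). Its Adarb1 level was 52.2 FPKM against 14.3 to 15.5 (0.968), Vwc2 was at 1.79 against 0.778 to 0.832 FPKM (0.947), and Olfm3 was at 17.4 against 8.49 to 9.75 FPKM (0.858). The thalamus score of this mouse was 6.67 against 3.202 to 3.35 (0.957). Its summed choroid plexus FPKM was also the highest of all mice, at 4431. Among 16p11.2+/- mice DF-1037 had an interneuron score of 3.96 against 4.74 to 4.78 (0.949). Its summed interneuron FPKM was the highest of all mice, at 317. Of the 8 interneuron markers, 3 had their highest and 5 their lowest FPKM in this mouse, so the low score does not hold for the whole list. The cause of these gaps was not tested.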

How the results depend on the processing

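None of the 10 genes, and no gene of the other 4 lists, passed the adjusted threshold under any alternative run (210 fits of the members over 21 settings, lowest adjusted p 0.517). The direction did depend on the setting, in 27 fits and for all members but Gria4 and Cacng5. With the thalamus score as covariate the log2 fold change was 0.16 for Gria1, 0.070 for Gria2, -0.13 for Cacng2, 0.019 for Cacng3, 0.32 for Cacng8 and 0.039 for Cnih2, and the median of the members moved from -0.11 to 0.05. With the medium spiny neuron score it was 0.079 for Gria1, 0.0066 for Gria2, 0.0053 for Gria3, -0.046 for Cacng2, 0.027 for Cacng3 and 0.011 for Cacng8, and with the cortical score 0.036 for Cacng8. Without DF-1037 and DF-1062, the mice lowest in medium spiny neuron markers, it was 0.15 for Gria1, 0.043 for Gria2, -0.11 for Cacng2, 0.0081 for Cacng3, 0.026 for Cacng4 and 0.017 for Cacng8. Without the 4 mice high in thalamus markers it was 0.14 for Gria1 and -0.10 for Cacng2, and the 1 remaining 16p11.2+/- mouse is assumed to vary like the WT mice. With each mouse left out, it ranged from -0.18 to 0.095 for Gria1, -0.19 to 0.045 for Gria3, -0.069 to 0.28 for Cacng2 and -0.31 to 0.016 for Cacng8. It kept its direction for the other genes, at -0.34 to -0.10 for Gria2, 0.25 to 0.47 for Gria4, -0.36 to -0.035 for Cacng3, -0.48 to -0.17 for Cacng4, 0.19 to 0.58 for Cacng5 and -0.30 to -0.073 for Cnih2. The cause was not tested.

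The Gria4 slope on the thalamus score lost its call without a filter (0.15, adjusted p 0.0545), and with each mouse left out was 0.15 to 0.16 (adjusted p 0.0366 to 0.818). The Cacng8 slope lost it with library totals (-0.26, adjusted p 0.0680) and without the genotype term (-0.21, adjusted p 0.0741), and was -0.32 to -0.18 with each mouse left out (adjusted p 0.0265 to 0.853). The Cacng4 slope on the medium spiny neuron score was 0.32 to 0.45 (adjusted p 0.0223 to 0.169). No paired analysis was possible because no replicate number occurs in both genotypes. The members had 156 to 18043 counts per mouse.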
